A study of Sus scrofa with 11 samples.

Results

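The comparison set liver from pigs that had received 20 or 30 Gy of hepatic irradiation, pooled as low dose, against liver labelled control. It used 8 of the 11 libraries in the series, chosen by their labels alone: 3 at 20 Gy and 3 at 30 Gy, all labelled day 35, and 2 controls labelled day 0. The 3 libraries at 40 Gy, also day 35, enter only where a difference from low dose is tested. The labels give every library as wild type, with liver as the tissue and hepatocyte as the cell type, and none ties a library to an animal. The p-values therefore rest on the spread from library to library, part of which may be technical, and an effect of irradiation and an effect of the 35 days cannot be told apart.

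Between meals the liver burns fatty acids in its mitochondria, and after a carbohydrate meal it makes them from acetyl-CoA through ACLY, ACACA, FASN and SCD under the transcription factors SREBF1 and MLXIPL. Radiation injury of the liver is known for damage to the endothelium of the sinusoids and for collagen laid down by stellate cells around small veins, the picture called veno-occlusive disease, which the series title names. The title also names ferroptosis, a death of cells from iron-dependent peroxidation of lipids, in which ACSL4 loads membranes with oxidizable fatty acids and GPX4 removes the peroxides. Levels are given in FPKM, the number of fragments scaled by transcript length and by the mapped total of the library, so that genes can be compared. For the 6 low-dose libraries the lowest, the highest and the median are given. Changes are the mean of low dose minus the mean of control on log2(FPKM + 1), with the SE and the adjusted p of limma, and genes with an adjusted p under 0.05 were called.

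The 6 low-dose libraries were not 6 independent samples. Over 5129 genes with at least 5 FPKM in all 8 libraries, log2 ratios between 2 libraries had an SD of 0.134 for the pair 20Gy-3 and 30Gy-3. The SD was 0.141 for the pair 30Gy-1 and 30Gy-2, and 0.474 for the 2 controls. 20Gy-1 stood close to 20Gy-3 and 30Gy-3 (0.31 and 0.321), and 20Gy-2 close to 30Gy-1 and 30Gy-2 (0.328 and 0.357), whereas libraries of different triplets were 0.543 to 0.642 apart. Low-dose libraries differed from controls by 0.602 to 0.834, so the low-dose libraries fell into 2 triplets that each mix both doses. The comparison was therefore also fitted with each near-identical pair averaged to 1 sample, which leaves 4 low-dose samples against 2 controls.

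Markers of hepatocytes, the labelled cell type, were abundant in every library. All 15 were measured, limma called 0 of them (1 at an unadjusted p under 0.05), and their summed level was 78930.0 and 48800.0 FPKM in the controls and 50950.0 to 68880.0 in the low-dose libraries. ALB, the gene of serum albumin, read 42547 and 27026 FPKM in the controls and 27264 to 35552 (median 31409) at low dose. Markers of other liver cells were present too: PECAM1, carried by endothelial cells, was at 18.1 and 12.7 FPKM in the controls and at 14.5 to 17.6 (median 15.1) at low dose. A lower level in such a mixed sample can come from fewer cells of a type or from less RNA in each, which cannot be told apart.

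Low-dose liver differed from control liver at 1591 of the 11337 genes tested, or 14.0%, of which 785 (6.92%) were higher and 806 (7.11%) lower. With both pairs averaged, 777 genes (6.85%) were called, 412 higher (3.63%) and 365 lower (3.22%), and 776 of them were called in the same direction in both fits. At 3651 genes (32.2%) the 6 low-dose libraries did not overlap the 2 controls. A change of more than 1 on the log2 scale was seen in 651 of the 1591 genes, and of more than 2 in 125. The split between higher and lower depended on scaling: after each library was set to the same FPKM sum, 967 genes were higher and 459 lower, and the median change of all genes moved from -0.03 to 0.11. Without Control-2 the number of genes called was 687, and without Control-1 it was 890. In the fit that shared its variance with the 40 Gy libraries it was 814. The counts of list members below stand against these shares and counts over all genes.

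Genes that make fat were among the largest rises, SCD and FASN leading them. SCD, the desaturase that turns saturated into monounsaturated fatty acids, was at 6.33 and 3.77 FPKM in the controls and at 150.3, 268, 173, 296, 302 and 169 FPKM in 20Gy-1 to 30Gy-3 in order. That is 36.97-fold on the FPKM + 1 scale (log2 change 5.21, SE 0.32, adjusted p = 4.15e-05, and 8.37e-04 with the pairs averaged). FASN, the fatty acid synthase, read 19.7 and 22.2 FPKM in the controls and 924, 748, 719, 570.2, 529.9 and 708 at low dose, 31.5-fold (log2 change 4.98, SE 0.22, adjusted p = 4.44e-06, and 1.83e-04 with the pairs averaged). In both genes every low-dose library was far above both controls. THRSP, a nuclear protein that promotes lipogenesis, went from 61.3 and 3.42 FPKM to a range of 210.0 to 577 (median 342) (log2 change 4.42, SE 0.83, adjusted p = 0.00922, and 0.0375 with the pairs averaged), its controls lying far apart. PNPLA3, a lipid droplet hydrolase induced by feeding, went from 0.724 and 0.408 to a range of 15.3 to 54.01 (median 31.01) (log2 change 4.22, SE 0.48, adjusted p = 8.35e-04, and 0.0041 with the pairs averaged). A gene was tested where 2 or more of the 8 libraries reached 1 FPKM. PNPLA3 was under 1 FPKM in both controls and passed this filter only through low-dose libraries. ANGPTL8, a feeding-induced inhibitor of lipoprotein lipase, went from 16.6 and 2.74 to a range of 43.7 to 138 (median 81.5) (log2 change 3.36, SE 0.60, adjusted p = 0.00758, and 0.029 with the pairs averaged). ANGPTL8 (adjusted p = 0.0701) missed the threshold without Control-2. ANGPTL8 (0.0645) did so in the fit to all 11 libraries. ANGPTL8 lies on chromosome 2 (69951556 to 69954223, Sscrofa11.1) within DOCK6, and the sources used here do not say whether strand was kept in counting.

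IDI1, an isomerase of the cholesterol pathway, rose from 173 and 127 FPKM to a range of 1408 to 1974 (median 1706) (log2 change 3.50, SE 0.19, adjusted p = 1.95e-05, and 8.37e-04 with the pairs averaged). CXCL9, a chemokine that draws T cells and is induced by interferon gamma, was at 2.53 and 2.15 FPKM in the controls and at 79.4, 67.3, 90.3, 77.6, 77.4 and 93.6 in the low-dose libraries, 24.4-fold (log2 change 4.61, SE 0.16, adjusted p = 1.59e-06, and 1.37e-04 with the pairs averaged). The spread of CXCL9 within each group was small beside the gap between them. ACSL4, which activates arachidonic acid for membrane lipids, read 3.26 and 2.37 in the controls and 27.7, 44.8, 28.8, 45.6, 49.7 and 31.3 at low dose, 10.01-fold (log2 change 3.32, SE 0.26, adjusted p = 1.35e-04, and 0.00156 with the pairs averaged). SDS, serine dehydratase, rose from 226 and 162 to a range of 1148 to 2838 (median 1813) (log2 change 3.28, SE 0.36, adjusted p = 6.78e-04, and 0.00466 with the pairs averaged). The muscle-type carbonic anhydrase CA3 rose from 6.89 and 0.6 to a range of 33.1 to 47.2 (median 39.3) (log2 change 3.53, SE 0.47, adjusted p = 0.0018, and 0.0134 with the pairs averaged). GDNF, a secreted neurotrophic factor, was at 0.0641 and 0.105 FPKM in the controls and at 6.05 to 15.7 (median 10.2) at low dose (log2 change 3.31, SE 0.39, adjusted p = 0.001, and 0.00466 with the pairs averaged). Both controls were under 1 FPKM, so GDNF passed the filter only through low-dose libraries. CBR2, a carbonyl reductase, and EXTL1, a glycosyltransferase of heparan sulfate, completed the leading rises given here: CBR2 went from 582 and 99.9 to a range of 1362 to 4690.4 (median 2668) FPKM and EXTL1 from 6.94 and 14.8 to a range of 75.4 to 142 (median 107), with log2 changes of 3.32 and 3.22 (adjusted p = 0.0106 and 6.68e-04, and 0.0327 and 0.00498 with the pairs averaged). CBR2 (adjusted p = 0.0888) missed the threshold without Control-2. SDS (0.14) did so in the fit to all 11 libraries.

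**Figure D1:**
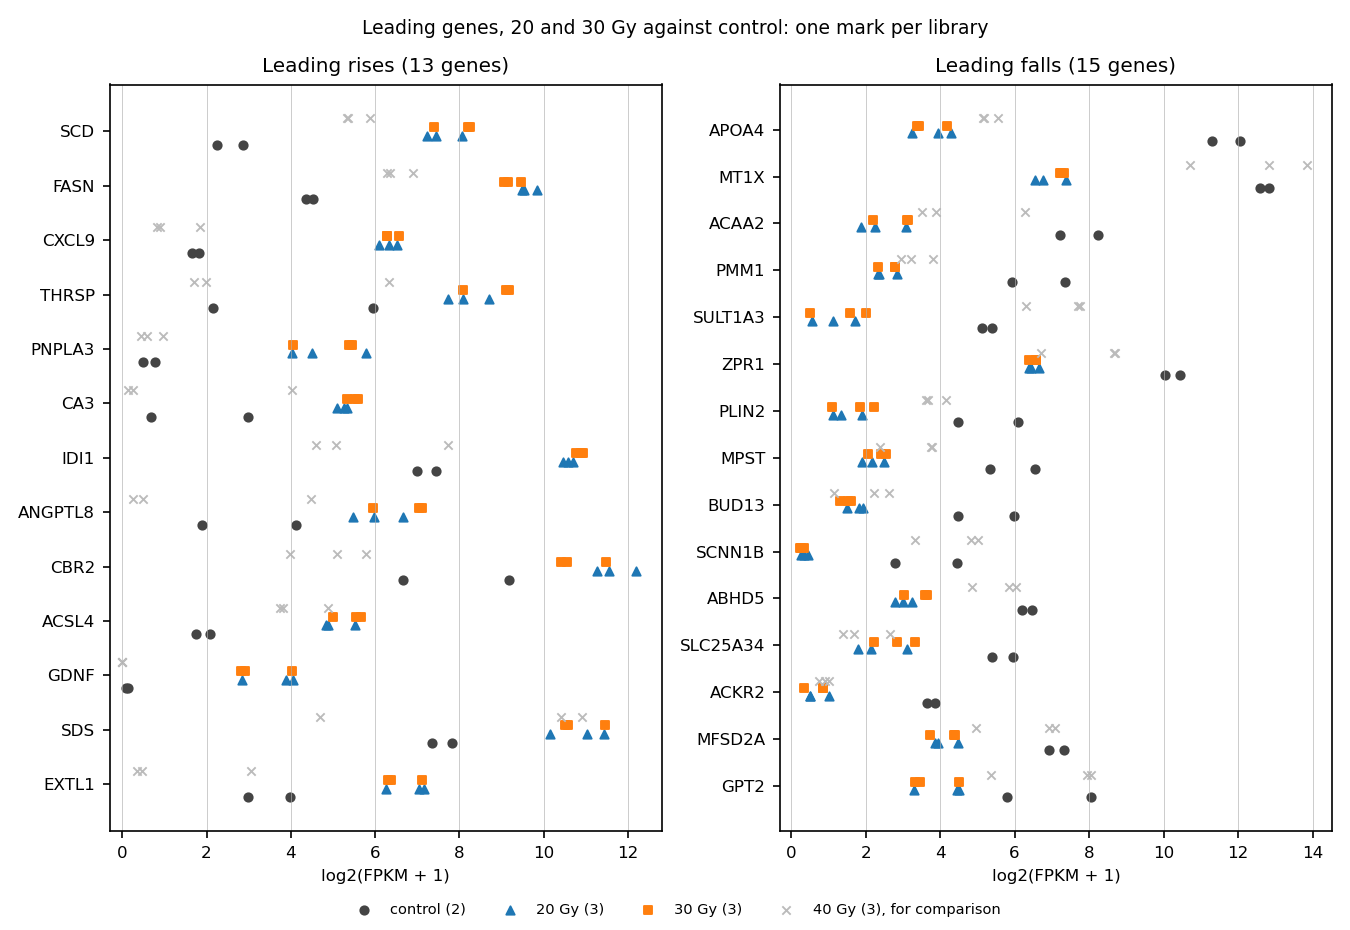
Level of the leading genes that rose (left, 13 genes) and fell (right, 15 genes) in low dose against control, as log2(FPKM + 1), with 1 mark per library (black circles control, blue triangles 20 Gy, orange squares 30 Gy, grey crosses 40 Gy). By the rule that chose the genes the low-dose marks do not overlap the controls. The 20 and 30 Gy marks of SCD intermix, running from 150.3 to 302 FPKM against 3.77 to 6.33 FPKM in the controls. Those of FASN do not, with 719.3 to 924 FPKM at 20 Gy and 529.9 to 707.6 FPKM at 30 Gy.

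The largest fall was that of APOA4, an apolipoprotein that the liver makes during fasting and fat loading. It read 2523 and 4266 FPKM in the controls and 14.3, 8.54, 18.5, 9.38, 9.71 and 17.4 in the low-dose libraries, 245-fold lower on the FPKM + 1 scale (log2 change -7.93, SE 0.33, adjusted p = 4.44e-06, and 1.37e-04 with the pairs averaged). Its neighbours BUD13 and ZPR1 were also among the 15 largest falls. On chromosome 9 of Sscrofa11.1 BUD13 lies at 44120830 to 44165410, ZPR1 at 44167422 to 44178137 and APOA4 at 44201587 to 44204072. BUD13, a splicing factor, fell from 21.2 and 61.8 FPKM to a range of 1.49 to 2.8 (median 1.96) (log2 change -3.61, SE 0.33, adjusted p = 3.28e-04, and 0.00408 with the pairs averaged). ZPR1, a zinc finger protein gene that overlaps APOA5 in this annotation, fell from 1059.9 and 1399.8 to a range of 82.7 to 100.1 (median 89.6) (log2 change -3.75, SE 0.16, adjusted p = 4.44e-06, and 3.42e-04 with the pairs averaged). MT1X, a metallothionein that binds zinc and copper, was at 7269 and 6127 FPKM in the controls and at 108, 93.2, 165, 152, 148 and 160.1 at low dose, 49.2-fold lower (log2 change -5.62, SE 0.24, adjusted p = 4.44e-06, and 1.83e-04 with the pairs averaged). Reads of near-identical metallothionein copies may be split among them, so the level of MT1X alone is uncertain.

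ACAA2, the mitochondrial thiolase of fatty acid oxidation, fell from 302 and 148 FPKM to a range of 2.64 to 7.79 (median 5.62) (log2 change -5.12, SE 0.41, adjusted p = 1.41e-04, and 0.00166 with the pairs averaged). PLIN2, the coat protein of liver lipid droplets, fell from 21.3 and 66.6 to a range of 1.13 to 3.66 (median 2.06) (log2 change -3.69, SE 0.43, adjusted p = 9.24e-04, and 0.00575 with the pairs averaged). ABHD5, the co-activator of triglyceride lipase, fell from 72.8 and 87.7 to a range of 5.9 to 11.4 (median 7.77) (log2 change -3.12, SE 0.24, adjusted p = 1.34e-04, and 0.00148 with the pairs averaged). MFSD2A, a lipid transporter induced by fasting, fell from 121 and 159.6 to a range of 12.3 to 21.3 (median 17.03) (log2 change -2.998, SE 0.24, adjusted p = 1.39e-04, and 0.00175 with the pairs averaged). GPT2, a mitochondrial alanine aminotransferase, fell from 54.3 and 263 to a range of 8.79 to 21.9 (median 15.5) (log2 change -2.99, SE 0.59, adjusted p = 0.0111, and 0.0368 with the pairs averaged). SLC25A34, a mitochondrial carrier, fell from 40.8 and 60.6 to a range of 2.48 to 9.09 (median 4.95) (log2 change -3.08, SE 0.40, adjusted p = 0.00154, and 0.00552 with the pairs averaged). The remaining leading falls were PMM1 (-4.06, 1.54e-04), a phosphomannomutase, SULT1A3 (-4.01, 4.49e-04), a sulfotransferase that overlaps BOLA2B, MPST (-3.68, 1.52e-04), a sulfurtransferase that overlaps TST, SCNN1B (-3.31, 5.05e-04), a sodium channel subunit, and ACKR2 (-3.08, 4.15e-05), a scavenging chemokine receptor that overlaps ZNF662, with the log2 change and the adjusted p in brackets. With the pairs averaged the adjusted p of these 5 genes was 0.00216, 0.00214, 0.00213, 0.00515 and 8.37e-04 in turn. SCNN1B passed the filter only through the 2 controls. GPT2 (adjusted p = 0.0987) missed the threshold without Control-2.

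Of 18 genes of fatty acid synthesis tested, 9 rose and 3 fell, with a median change of 0.84 against -0.03 over all genes. The counts were 9 and 1 with the pairs averaged, 9 and 0 without Control-1 and 6 and 1 without Control-2, and 8 and 3 in the fit to all 11 libraries. The chain of enzymes from acetate to palmitate rose together: ACSS2, which makes acetyl-CoA from acetate, went from 20.3 and 13.6 FPKM to a range of 88.3 to 114 (median 90.8) (log2 change 2.47, SE 0.19, adjusted p = 1.34e-04, and 0.00204 with the pairs averaged). ACACA, acetyl-CoA carboxylase, rose from 6.38 and 6.35 to a range of 20.8 to 33.9 (median 26.9) (log2 change 1.89, SE 0.21, adjusted p = 7.20e-04, and 0.00498 with the pairs averaged). ACLY, ATP citrate lyase, rose from 9.14 and 10.2 to a range of 16.4 to 21.5 (median 18.8) (log2 change 0.89, SE 0.14, adjusted p = 0.00465, and 0.0255 with the pairs averaged). Of the transcription factors, SREBF1 rose from 25.3 and 24.5 to a range of 44.2 to 73.9 (median 53.8) (log2 change 1.11, SE 0.21, adjusted p = 0.00891, and 0.028 with the pairs averaged). MLXIPL rose from 78.4 and 31.7 to a range of 123 to 274 (median 147) (log2 change 1.74, SE 0.40, adjusted p = 0.0221, and 0.0492 with the pairs averaged). The members that fell were SLC25A1 (-1.21, adjusted p = 0.0195), the citrate carrier, ELOVL6 (-1.25, 0.0258), the elongase of palmitate, and MLX (-0.82, 0.00912), the partner of MLXIPL. SLC25A1 (adjusted p = 0.0652) and ELOVL6 (0.0572) missed the threshold with both pairs averaged. SREBF1 (0.0518), SLC25A1 (0.0732), ELOVL6 (0.0832) and MLX (0.0674) did so without Control-1. SREBF1 (0.0649), MLXIPL (0.191), SLC25A1 (0.135) and ELOVL6 (0.169) did so without Control-2. ELOVL6 (0.0727) did so with equal library sums. ELOVL6 (0.0761) did so after quantile normalization. ACACA, ACLY, SREBF1, MLXIPL, SLC25A1, ELOVL6 and MLX were named after their values had been seen.

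Genes of cholesterol synthesis and uptake moved the same way: 16 of 24 rose and 0 fell, with a median of 1.10. This count was sensitive to the pairs and to the controls, being 6 and 0 with the pairs averaged, 17 and 0 without Control-1 and 8 and 0 without Control-2, and 6 and 0 in the fit to all 11 libraries. Beside IDI1, HMGCS1, the synthase at the head of the pathway, rose from 16.5 and 5.02 FPKM to a range of 64.8 to 95.8 (median 80.5) (log2 change 2.97, SE 0.35, adjusted p = 9.24e-04, and 0.00832 with the pairs averaged). FDPS, which makes farnesyl diphosphate, rose from 117 and 57.9 to a range of 418 to 479 (median 442) (log2 change 2.43, SE 0.23, adjusted p = 4.09e-04, and 0.00515 with the pairs averaged). In both genes Control-1 was above Control-2, and both were under every low-dose library. HMGCS1 (adjusted p = 0.0538) missed the threshold in the fit to all 11 libraries.

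In fatty acid oxidation and ketogenesis 9 of 27 genes fell and 0 rose, with a median of -0.32. The counts of higher and lower genes were 0 and 9 with the pairs averaged, 3 and 7 without Control-1 and 0 and 9 without Control-2, and 0 and 8 in the fit to all 11 libraries. CPT1A, which admits fatty acids to the mitochondrion, fell from 50.4 and 109 FPKM to a range of 21.4 to 22.6 (median 21.9) (log2 change -1.72, SE 0.24, adjusted p = 0.00235, and 0.0186 with the pairs averaged). ACADVL, the first dehydrogenase for very long chains, fell from 146 and 209 to a range of 30.5 to 48.3 (median 37.6) (log2 change -2.17, SE 0.24, adjusted p = 7.20e-04, and 0.00602 with the pairs averaged). In both genes every low-dose library was under both controls, and Control-2 was above Control-1.

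Triglyceride assembly and lipid droplet genes fell at 11 of 25 and rose at 1, the latter being PNPLA3, with a median of -0.61. PNPLA3 passed the filter only through low-dose libraries, so its rise adds no weight to that count. The counts were 1 and 7 with the pairs averaged, 1 and 8 without Control-1 and 1 and 6 without Control-2, and 1 and 6 in the fit to all 11 libraries. Besides PLIN2 and ABHD5, AGPAT3, an acyltransferase of phospholipid and triglyceride synthesis, fell from 77.3 and 103 FPKM to a range of 9.87 to 27.3 (median 16.5) (log2 change -2.40, SE 0.39, adjusted p = 0.00487, and 0.017 with the pairs averaged). Among 18 apolipoprotein and lipoprotein genes 2 rose and 4 fell. CREB3L3, a hepatic transcription factor that drives APOA4 in fasting, fell from 259.6 and 228 to a range of 96.5 to 105 (median 98.4) (log2 change -1.28, SE 0.13, adjusted p = 5.05e-04, and 0.00918 with the pairs averaged). ABCA1, the cholesterol exporter, rose from 3.28 and 1.74 to a range of 6.48 to 8.41 (median 8.09) (log2 change 1.34, SE 0.18, adjusted p = 0.00201, and 0.0167 with the pairs averaged). AGPAT3 (adjusted p = 0.0581) missed the threshold without Control-2. CREB3L3 (0.186) did so in the fit to all 11 libraries. Counts for the apolipoprotein list were 2 and 3 with the pairs averaged, 2 and 3 without Control-1 and 1 and 5 without Control-2, and 1 and 2 in the fit to all 11 libraries.

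Genes of gluconeogenesis and the fasting response fell at 9 of 26 and rose at 1, which was SDS, with a median of -0.05. The counts were 1 and 6 with the pairs averaged, 1 and 6 without Control-1 and 1 and 6 without Control-2, and 0 and 5 in the fit to all 11 libraries. PC, pyruvate carboxylase, fell from 288 and 339 FPKM to a range of 74.5 to 117 (median 92.97) (log2 change -1.73, SE 0.19, adjusted p = 6.86e-04, and 0.0075 with the pairs averaged), and GPT2 above also stands in this list. Of 29 genes of glycolysis and glucose entry 4 rose and 2 fell (20.7% called, against 14.0% of all genes), and the counts were 3 and 2 with the pairs averaged, 5 and 2 without Control-1 and 2 and 2 without Control-2, and 3 and 2 in the fit to all 11 libraries. PGD of the pentose phosphate pathway rose from 25.4 and 22.7 to a range of 43.6 to 82.5 (median 61.4) (log2 change 1.26, SE 0.24, adjusted p = 0.00978, and 0.028 with the pairs averaged). LDHB, a lactate dehydrogenase subunit, fell from 48.4 and 108 to a range of 6.7 to 16.95 (median 12.7) (log2 change -2.49, SE 0.37, adjusted p = 0.00311, and 0.015 with the pairs averaged). PGD (adjusted p = 0.0793) missed the threshold without Control-2.

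**Figure D2:**
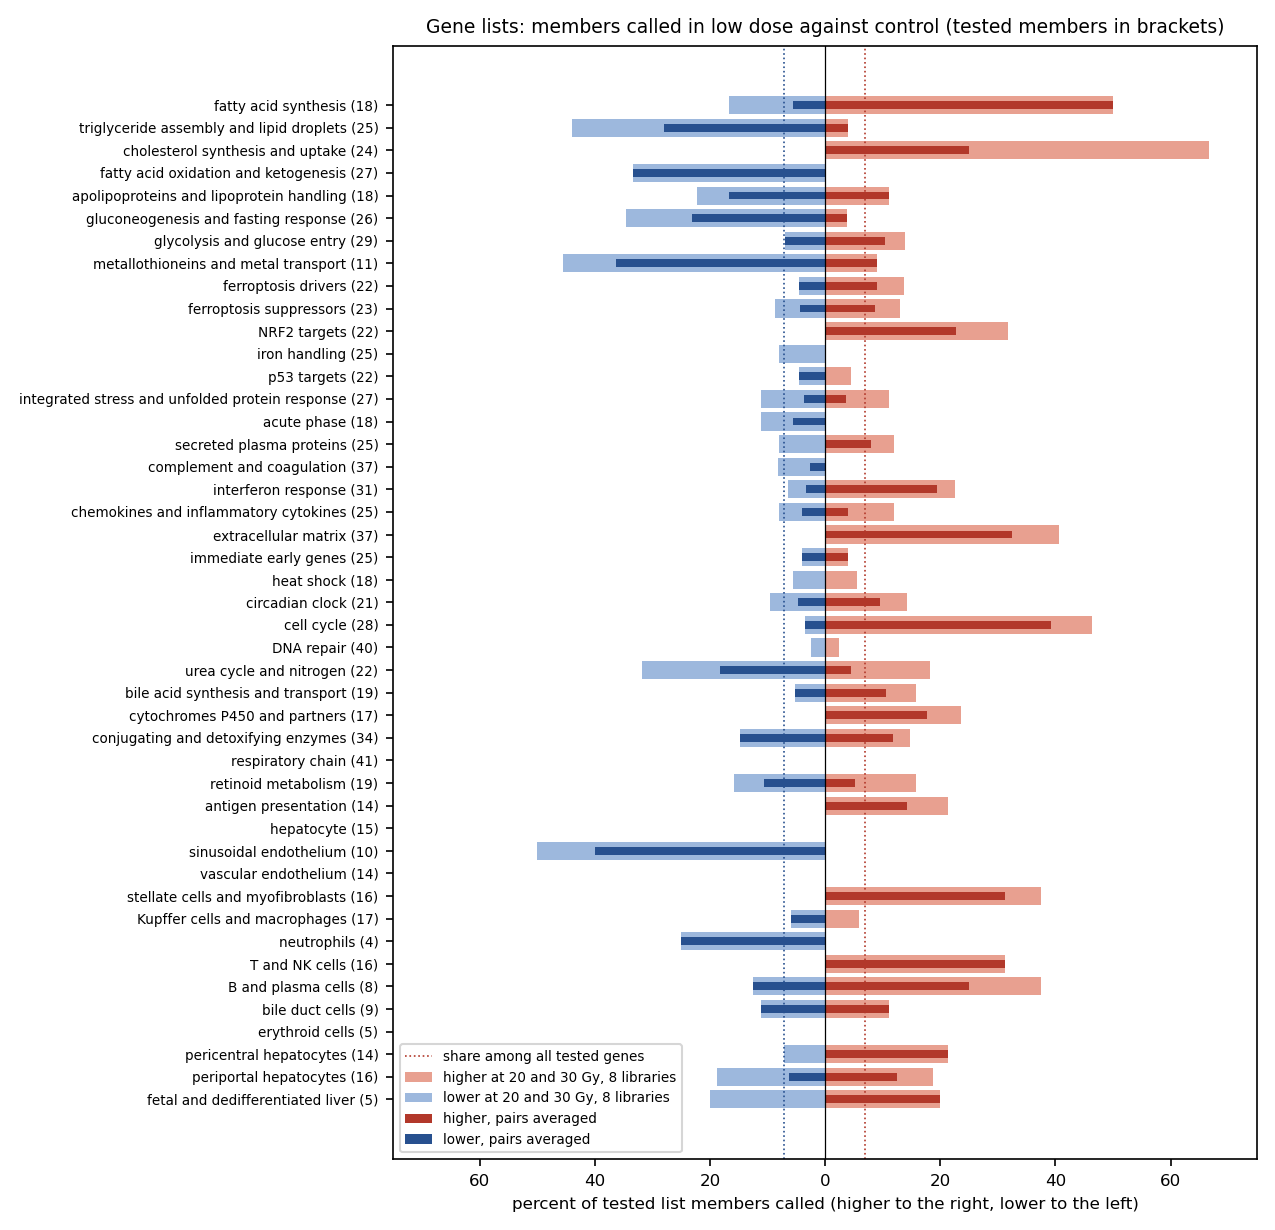
Percent of the tested members of each gene list called higher (red, to the right) or lower (blue, to the left) in low dose against control; pale bars are the fit to 8 libraries, narrow dark bars the fit with the pairs averaged, and dotted lines mark the 6.92% higher and 7.11% lower among all genes. Lipid synthesis, cholesterol, matrix and cell cycle lists reach far to the right, lipid droplet, oxidation, metal and sinusoidal lists to the left, and the respiratory chain, hepatocyte, vascular endothelium and erythroid lists have no bar.

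Of 11 metal handling genes 5 fell, MT1X among them, and 1 rose. The counts of higher and lower genes were 1 and 4 with the pairs averaged, 1 and 2 without Control-1 and 0 and 4 without Control-2, and 1 and 3 in the fit to all 11 libraries. SLC30A1, the zinc exporter of the plasma membrane, fell from 12.5 and 12.2 FPKM to a range of 6.21 to 7.83 (median 6.4) (log2 change -0.80, SE 0.12, adjusted p = 0.00373, and 0.0223 with the pairs averaged). SLC39A8, an importer of zinc and manganese, fell from 14.2 and 10.4 to a range of 5.99 to 7.57 (median 6.3) (log2 change -0.82, SE 0.15, adjusted p = 0.00768, and 0.0432 with the pairs averaged). SLC39A4, the zinc importer of the gut, rose from 2.01 and 2.26 to a range of 4.11 to 7.11 (median 4.49) (log2 change 0.93, SE 0.19, adjusted p = 0.0131, and 0.0255 with the pairs averaged). MT3, a metallothionein best known from brain, was at 1.98 and 1.88 FPKM in the controls and was listed at 0 in all 6 low-dose libraries. It is 1 of the 5 falls, but it passed the filter only through the 2 controls. Its fall therefore adds no weight to that count. SLC39A8 (adjusted p = 0.0615) and SLC39A4 (0.0935) missed the threshold without Control-1. SLC39A4 (0.0701) did so without Control-2. MT3 (0.562) did so in the fit to all 11 libraries. MT3 was named after its values had been seen.

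Calls among the genes of ferroptosis went in both directions. Of 22 drivers tested 3 rose and 1 fell, with a median of 0.08, and of 23 suppressors 3 rose and 2 fell, with a median of -0.16. The shares called were 18.2% and 21.7%, not far from the 14.0% of all genes. For the drivers the counts were 2 and 1 with the pairs averaged, 1 and 1 without Control-1 and 2 and 0 without Control-2, and 2 and 0 in the fit to all 11 libraries. For the suppressors they were 2 and 1 with the pairs averaged, 2 and 2 without Control-1 and 3 and 0 without Control-2, and 2 and 0 in the fit to all 11 libraries. ACSL4 was the driver with the largest rise, from 3.26 and 2.37 FPKM to a range of 27.7 to 49.7 (median 38.04). CHAC1, which degrades glutathione and is induced by the ATF4 stress response, rose from 0.471 and 0.39 to a range of 3.01 to 13.9 (median 7.71) (log2 change 2.47, SE 0.53, adjusted p = 0.016, and 0.0314 with the pairs averaged). Under 1 FPKM in both controls, CHAC1 passed the filter only through low-dose libraries, so its rise adds no weight to the driver count. SAT1, a polyamine acetyltransferase, read 141 and 184 in the controls and 222 to 268 (median 253) at low dose (log2 change 0.61, SE 0.16, adjusted p = 0.0343, and 0.138 with the pairs averaged). GLS2, the liver glutaminase, fell from 73.6 and 84.4 to a range of 12.1 to 29 (median 20.1) (log2 change -1.96, SE 0.35, adjusted p = 0.00766, and 0.0212 with the pairs averaged). CHAC1 (adjusted p = 0.0939) missed the threshold without Control-1. CHAC1 (0.108) and GLS2 (0.0698) did so without Control-2. GLS2 (0.058) did so in the fit to all 11 libraries. CHAC1 (0.0552) did so with a pseudocount of 5. SAT1 was called in 10 of 19 alternatives, with adjusted p up to 0.201; without Control-1 it was 0.201, and the call was also lost without 20Gy-3, 30Gy-1, 30Gy-2 or 30Gy-3 in turn (0.0693, 0.0649, 0.0643 and 0.0701).

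Among the suppressors SCD stood first, and it was listed there because monounsaturated fatty acids resist peroxidation. GCH1, which starts the synthesis of the antioxidant tetrahydrobiopterin, rose from 3.59 and 5.98 FPKM to a range of 12.7 to 36.99 (median 23.7) in the 8-library fit (log2 change 2.01, SE 0.48, adjusted p = 0.0254, and 0.0503 with the pairs averaged). GCLM, a subunit of the enzyme that limits glutathione synthesis, rose from 8.37 and 8.21 to a range of 14.4 to 17.99 (median 17.1) (log2 change 0.92, SE 0.13, adjusted p = 0.0027, and 0.0243 with the pairs averaged). CTH, which supplies cysteine by transsulfuration, fell from 371 and 649 to a range of 158 to 255 (median 198) (log2 change -1.25, SE 0.25, adjusted p = 0.0124, and 0.0423 with the pairs averaged). GCH1 (adjusted p = 0.0503) missed the threshold with both pairs averaged. GCH1 (0.18) did so without Control-1. GCH1 (0.0876) and CTH (0.11) did so without Control-2. GCH1 (0.0655) and CTH (0.385) did so in the fit to all 11 libraries. GPX4, the peroxidase that removes lipid peroxides, read 95.8 and 85.5 in the controls and 47.3, 60.5, 71, 83.3, 84.4 and 66.7 at low dose and did not pass the test (log2 change -0.42, SE 0.22, adjusted p = 0.255, and 0.277 with the pairs averaged). Its low-dose values ranged from well under to just under those of the controls. AIFM2, the ubiquinone reductase also called FSP1, read 16.7 and 14.5 in the controls and 15.5 to 19.7 (median 18.7) at low dose (log2 change 0.20, SE 0.14, adjusted p = 0.379, and 0.612 with the pairs averaged). GPX4 and AIFM2 were named after their values had been seen.

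Of 25 iron handling genes 0 rose and 2 fell (8.0% called, under the 14.0% of all genes). The counts were 0 and 0 with the pairs averaged, 0 and 0 without Control-1 and 0 and 0 without Control-2, and 0 and 0 in the fit to all 11 libraries. The 2 members called in the 8-library fit were TFR2 (-0.63, adjusted p = 0.0463), the hepatic iron sensor, and SLC11A2 (-0.83, 0.0425), the importer of ferrous iron. With the pairs averaged their adjusted p was 0.162 and 0.0836, and TFR2 was called in 5 and SLC11A2 in 8 of 19 alternatives. FTL, the light chain of the iron store ferritin, read 4974 and 4097 FPKM in the controls and 2792 to 3901 (median 3770.3) at low dose and did not pass (log2 change -0.39, SE 0.19, adjusted p = 0.215, and 0.265 with the pairs averaged). FTL was named after its values had been seen. Targets of NRF2, the transcription factor of the oxidative stress response, rose at 7 of 22 and fell at 0, with a median of 0.26, and the counts were 5 and 0 with the pairs averaged, 6 and 0 without Control-1 and 4 and 0 without Control-2, and 6 and 0 in the fit to all 11 libraries. UGDH, which makes the sugar for glucuronidation, rose from 14.7 and 8.12 to a range of 29.1 to 45.8 (median 38.1) (log2 change 1.71, SE 0.24, adjusted p = 0.00212, and 0.0156 with the pairs averaged). GSTA4, a glutathione transferase that detoxifies products of lipid peroxidation, rose from 19.1 and 11.2 to a range of 30.6 to 36.6 (median 34.3) (log2 change 1.14, SE 0.19, adjusted p = 0.00558, and 0.0348 with the pairs averaged). TKT, transketolase, rose from 59.8 and 41.99 to a range of 91.7 to 129 (median 112) (log2 change 1.12, SE 0.21, adjusted p = 0.0103, and 0.0419 with the pairs averaged). TKT (adjusted p = 0.0957) missed the threshold without Control-2.

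**Figure D3:**
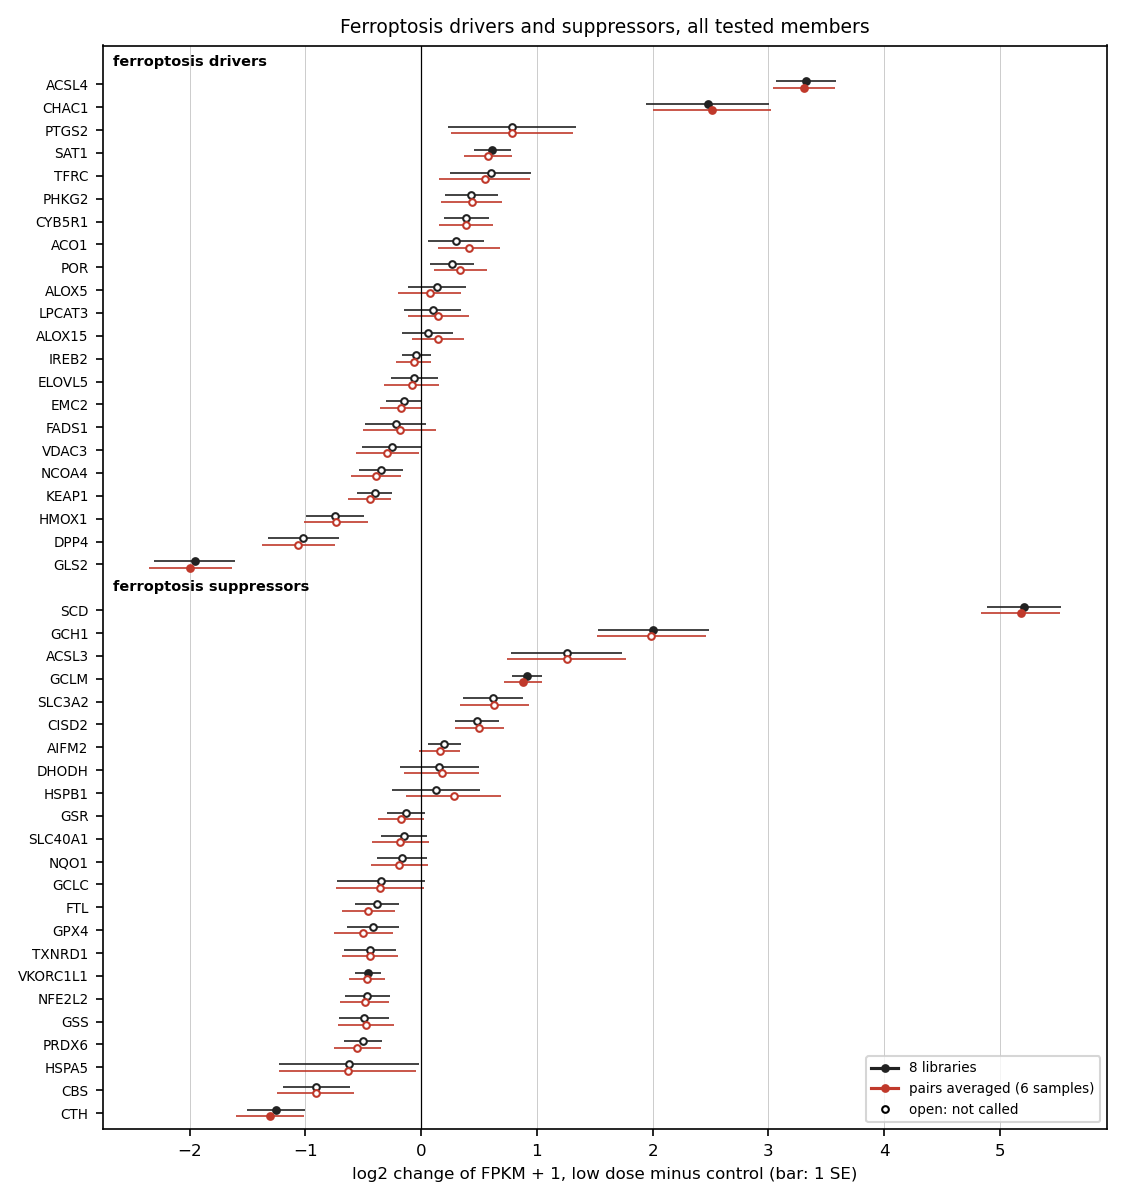
Log2 change (low dose minus control, FPKM + 1) of every tested ferroptosis driver and suppressor, with bars of 1 SE, in the fit to 8 libraries (black) and with the pairs averaged (red); open circles are genes not called. ACSL4 at 3.32 and SCD at 5.21 lie far to the right of the other members, most of which lie between -1 and 1 and are open.

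The cell cycle genes tested were called higher at low dose more often than lower, many from low levels in control liver. Only 28 of the 44 listed genes passed the filter. A listed gene under 1 FPKM in both controls could enter only through low-dose libraries that reached 1 FPKM, which favours rises in the count. Of 28 tested 13 rose and 1 fell, with a median of 0.85, and the counts were 11 and 1 with the pairs averaged, 10 and 0 without Control-1 and 10 and 1 without Control-2, and 9 and 1 in the fit to all 11 libraries. CCND1, the cyclin that starts G1 progression, rose from 4.58 and 7.2 FPKM to a range of 26.6 to 48.6 (median 36.7) (log2 change 2.44, SE 0.31, adjusted p = 0.00151, and 0.00735 with the pairs averaged). STMN1, a microtubule regulator of dividing cells, was at 3.22 and 3.79 in the controls and at 17.2, 18.1, 17.1, 17.3, 17.5 and 17.2 at low dose (log2 change 2.03, SE 0.11, adjusted p = 2.66e-05, and 0.00118 with the pairs averaged), a nearly constant level across the low-dose libraries. TK1, thymidine kinase, rose from 1.21 and 1.15 to a range of 4.86 to 11.8 (median 8.07) (log2 change 2.01, SE 0.26, adjusted p = 0.00147, and 0.00431 with the pairs averaged). The member that fell was TYMS, thymidylate synthase, from 15.4 and 8.5 to a range of 3.83 to 5.48 (median 4.63) (log2 change -1.14, SE 0.21, adjusted p = 0.00922, and 0.0381 with the pairs averaged). TYMS (adjusted p = 0.07) missed the threshold without Control-1. In the lists of p53 targets and DNA repair, 1 of 22 p53 targets rose and 1 fell, and 1 of 40 repair genes rose and 1 fell. The shares called were 9.09% and 5.0%, under the 14.0% of all genes. GADD45A, a p53 target that slows the cycle, fell from 17.98 and 17.4 to a range of 7.79 to 11.2 (median 10.1) (log2 change -0.82, SE 0.17, adjusted p = 0.0129, and 0.0403 with the pairs averaged). CDKN1A, the p21 inhibitor that p53 induces, read 77.1 and 66.5 in the controls and 46.6 to 84.5 (median 61.8) at low dose (log2 change -0.24, SE 0.23, adjusted p = 0.538, and 0.696 with the pairs averaged), and was named after its values had been seen. GADD45A (adjusted p = 0.078) missed the threshold without Control-1. GADD45A (0.072) did so without Control-2. GADD45A (0.0551) did so with equal library sums. For p53 targets the counts were 0 and 1 with the pairs averaged, 2 and 0 without Control-1 and 0 and 0 without Control-2, and 0 and 1 in the fit to all 11 libraries, and for DNA repair they were 0 and 0 with the pairs averaged, 2 and 1 without Control-1 and 0 and 0 without Control-2, and 0 and 1 in the fit to all 11 libraries.

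Interferon-stimulated genes rose at 7 of 31 and fell at 2, with a median of 0.55, and the counts were 6 and 1 with the pairs averaged, 10 and 1 without Control-1 and 6 and 2 without Control-2, and 3 and 0 in the fit to all 11 libraries. IFI6, a mitochondrial interferon-induced protein, rose from 202 and 112 FPKM to a range of 735 to 1359 (median 1019) (log2 change 2.80, SE 0.28, adjusted p = 4.77e-04, and 0.00507 with the pairs averaged). ISG15, the ubiquitin-like modifier, rose from 56.2 and 29.1 to a range of 136 to 222 (median 166) (log2 change 2.06, SE 0.27, adjusted p = 0.00176, and 0.0122 with the pairs averaged). USP18, which removes it, rose from 6.29 and 3.43 to a range of 14.1 to 31.9 (median 22.2) (log2 change 1.97, SE 0.37, adjusted p = 0.00922, and 0.025 with the pairs averaged). USP18 (adjusted p = 0.0987) missed the threshold without Control-2. ISG15 (0.0882) did so in the fit to all 11 libraries. Chemokines and cytokines were called higher at 3 and lower at 2 of 25 (20.0% called, against 14.0% of all genes), and the counts were 1 and 1 with the pairs averaged, 2 and 1 without Control-1 and 1 and 2 without Control-2, and 2 and 0 in the fit to all 11 libraries. CXCL11, which shares its receptor CXCR3 with CXCL9, moved the other way, from 5.5 and 5.89 FPKM in the controls to 1.4, 0.505, 1.29, 0.552, 0.534 and 1.67 at low dose (log2 change -1.79, SE 0.25, adjusted p = 0.00236, and 0.00893 with the pairs averaged). CXCL11 (adjusted p = 0.0723) missed the threshold in the fit to all 11 libraries. Antigen presentation genes rose at 3 of 14, among them SLA-DQB1, a class II histocompatibility gene of the pig, from 11.4 and 16.4 to a range of 24.4 to 40.1 (median 31.2) (log2 change 1.16, SE 0.21, adjusted p = 0.00768, and 0.0259 with the pairs averaged). The immunoproteasome subunit PSMB9 rose from 2.67 and 2.17 to a range of 4.86 to 8.29 (median 7.28) (log2 change 1.19, SE 0.18, adjusted p = 0.00343, and 0.00956 with the pairs averaged). SLA-DQB1 (adjusted p = 0.0729) missed the threshold without Control-1. PSMB9 (0.154) did so in the fit to all 11 libraries. The antigen presentation counts were 2 and 0 with the pairs averaged, 2 and 0 without Control-1 and 2 and 0 without Control-2, and 1 and 0 in the fit to all 11 libraries. Acute phase genes were called lower at 2 of 18 and higher at 0, and C3, the central complement protein, fell from 3257 and 2343 to a range of 1138 to 1654 (median 1311) (log2 change -1.01, SE 0.20, adjusted p = 0.0119, and 0.0435 with the pairs averaged). C3 (adjusted p = 0.0937) missed the threshold without Control-1. C3 (0.0848) did so in the fit to all 11 libraries. C3 (0.0548) did so without 20Gy-3 and 30Gy-3. The acute phase counts were 0 and 1 with the pairs averaged, 0 and 0 without Control-1 and 0 and 2 without Control-2, and 0 and 0 in the fit to all 11 libraries.

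Marker genes of lymphocytes stood beside the chemokine and interferon genes. T and NK cell markers rose at 5 of 16 and fell at 0, and the counts were 5 and 0 with the pairs averaged, 4 and 0 without Control-1 and 3 and 0 without Control-2, and 3 and 0 in the fit to all 11 libraries. Their levels were low: CD8A, the coreceptor of cytotoxic T cells, was at 0.637 and 0.919 FPKM in the controls and at 2.02 to 3.04 (median 2.59) at low dose (log2 change 0.99, SE 0.15, adjusted p = 0.00311, and 0.0213 with the pairs averaged), and CD3E, a chain of the T cell receptor complex, at 0.769 and 0.825 and at 1.65 to 2.34 (median 1.82) (log2 change 0.69, SE 0.13, adjusted p = 0.00922, and 0.0348 with the pairs averaged). CD8A and CD3E are under the minimum of 5 FPKM that the rule for named genes set, and were chosen after their values had been seen. Both were under 1 FPKM in the controls and passed the filter only through low-dose libraries, which favours rises in the count of this list. 17 of the 26 listed markers were in the table, none of them at 0 in all 8 libraries, and their summed level was 33.04 and 31.2 FPKM in the controls and 44.5 to 52.6 in the low-dose libraries. B and plasma cell markers rose at 3 and fell at 1 of 8 (2 and 1 with the pairs averaged, 2 and 0 without Control-1 and 1 and 0 without Control-2, and 1 and 1 in the fit to all 11 libraries), with a summed level of 82.3 and 80.8 FPKM in the controls and 68.02 to 86.4 in the low-dose libraries. JCHAIN, which joins secreted antibodies, rose from 10.2 and 8.28 to a range of 14.8 to 22.4 (median 19.2) (log2 change 0.98, SE 0.18, adjusted p = 0.00792, and 0.0256 with the pairs averaged). CD79A, of the B cell receptor, fell from 32.95 and 31.02 to a range of 16.7 to 22.9 (median 19.2) (log2 change -0.70, SE 0.15, adjusted p = 0.0145, and 0.0423 with the pairs averaged). CD3E (adjusted p = 0.0588) and CD79A (0.0837) missed the threshold without Control-1. CD3E (0.0557), JCHAIN (0.0753) and CD79A (0.0645) did so without Control-2. CD79A (0.0522) did so with equal library sums. The part of lymphocyte RNA in the interferon and chemokine results was not tested.

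Extracellular matrix genes rose at 15 of 37 and fell at 0, with a median of 0.74. The counts were 12 and 0 with the pairs averaged, 6 and 0 without Control-1 and 8 and 0 without Control-2, and 3 and 0 in the fit to all 11 libraries. COL1A1, a chain of type I collagen, was at 1.69 and 1.34 FPKM in the controls and at 24.5, 35.6, 13.6, 17.9, 17.1 and 14.2 in the low-dose libraries (log2 change 3.02, SE 0.32, adjusted p = 6.42e-04, and 0.00408 with the pairs averaged). SPARC, a collagen-binding matrix protein, rose from 11.97 and 14.9 to a range of 39.8 to 86.4 (median 52.7) (log2 change 1.91, SE 0.28, adjusted p = 0.00295, and 0.0128 with the pairs averaged). MFAP4, a microfibril protein, went from 1.41 and 0.855 to a range of 3.15 to 12.8 (median 7.28) (log2 change 1.77, SE 0.43, adjusted p = 0.026, and 0.0396 with the pairs averaged). Markers of stellate cells and myofibroblasts, some of them also in the matrix list, rose at 6 of 16 and fell at 0, with counts of 5 and 0 with the pairs averaged, 3 and 0 without Control-1 and 4 and 0 without Control-2, and 2 and 0 in the fit to all 11 libraries. ACTA2, the smooth muscle actin of activated stellate cells, rose from 9 and 25.5 to a range of 39.6 to 61.2 (median 46) (log2 change 1.61, SE 0.33, adjusted p = 0.0126, and 0.0423 with the pairs averaged). TAGLN, an actin-binding partner, rose from 9.33 and 23.2 to a range of 33.9 to 65.3 (median 43.1) (log2 change 1.51, SE 0.33, adjusted p = 0.0182, and 0.0494 with the pairs averaged). DES and VIM, intermediate filament genes of stellate cells, did not pass, at log2 changes of -0.31 and -0.25 (adjusted p = 0.353 and 0.521), and were named after their values had been seen. The summed level of 16 stellate markers was 120.1 and 178 FPKM in the controls and 220.0 to 336 in the low-dose libraries. MFAP4 (adjusted p = 0.0976), ACTA2 (0.0696) and TAGLN (0.155) missed the threshold without Control-1. MFAP4 (0.167) did so without Control-2. COL1A1 (0.138), SPARC (0.102) and MFAP4 (0.0518) did so in the fit to all 11 libraries. MFAP4 (0.0768) did so without 20Gy-3 and 30Gy-3. MFAP4 (0.0567) did so with a pseudocount of 5.

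The sinusoidal endothelium, whose fenestrated cells line the small vessels of the liver, had lower marker levels. Of 10 markers tested 5 fell and 0 rose, with a median of -0.67, and the counts were 0 and 4 with the pairs averaged, 0 and 1 without Control-1 and 0 and 4 without Control-2, and 0 and 3 in the fit to all 11 libraries. CLEC4G, a lectin of these cells, read 206 and 263 FPKM in the controls and 95.7, 65.6, 79.5, 50.9, 47.7 and 84.5 at low dose (log2 change -1.75, SE 0.28, adjusted p = 0.00462, and 0.0191 with the pairs averaged). LYVE1, a hyaluronan receptor, fell from 15.03 and 13.4 to a range of 4.96 to 7.89 (median 6.46) (log2 change -1.06, SE 0.20, adjusted p = 0.00995, and 0.0339 with the pairs averaged). MRC1, the mannose receptor that macrophages carry too, fell from 15.7 and 11.4 to a range of 3.6 to 7.34 (median 5.47) (log2 change -1.18, SE 0.24, adjusted p = 0.0138, and 0.0376 with the pairs averaged). OIT3 read 29.7 and 13.7 in the controls and 3.63 to 12.1 (median 5.91) at low dose (log2 change -1.63, SE 0.40, adjusted p = 0.0285, and 0.0827 with the pairs averaged). OIT3 (adjusted p = 0.0827) missed the threshold with both pairs averaged. LYVE1 (0.077), MRC1 (0.124) and OIT3 (0.242) did so without Control-1. CLEC4G (0.0541) and LYVE1 (0.0565) did so without Control-2. CLEC4G (0.12) did so in the fit to all 11 libraries. OIT3 (0.0631) did so without 20Gy-3 and 30Gy-3. OIT3 (0.0505) did so without 20Gy-1. The summed level of the 10 sinusoidal markers in the table was 356 and 386 FPKM in the controls and 137 to 186 in the low-dose libraries, with no overlap and with none at 0 in all 8 libraries. Of 14 markers of vascular endothelium limma called 0 (3 at an unadjusted p under 0.05). PECAM1 had a log2 change of 0.03 (adjusted p = 0.923), and the summed level of 14 vascular markers was 188 and 187 FPKM in the controls. At low dose this sum split along the triplets. It was 133.6, 117.9 and 121.3 in 20Gy-1, 20Gy-3 and 30Gy-3, and 235.8, 187.2 and 186.9 in 20Gy-2, 30Gy-1 and 30Gy-2. That the 2 endothelial lists differ was not tested.

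**Figure D4:**
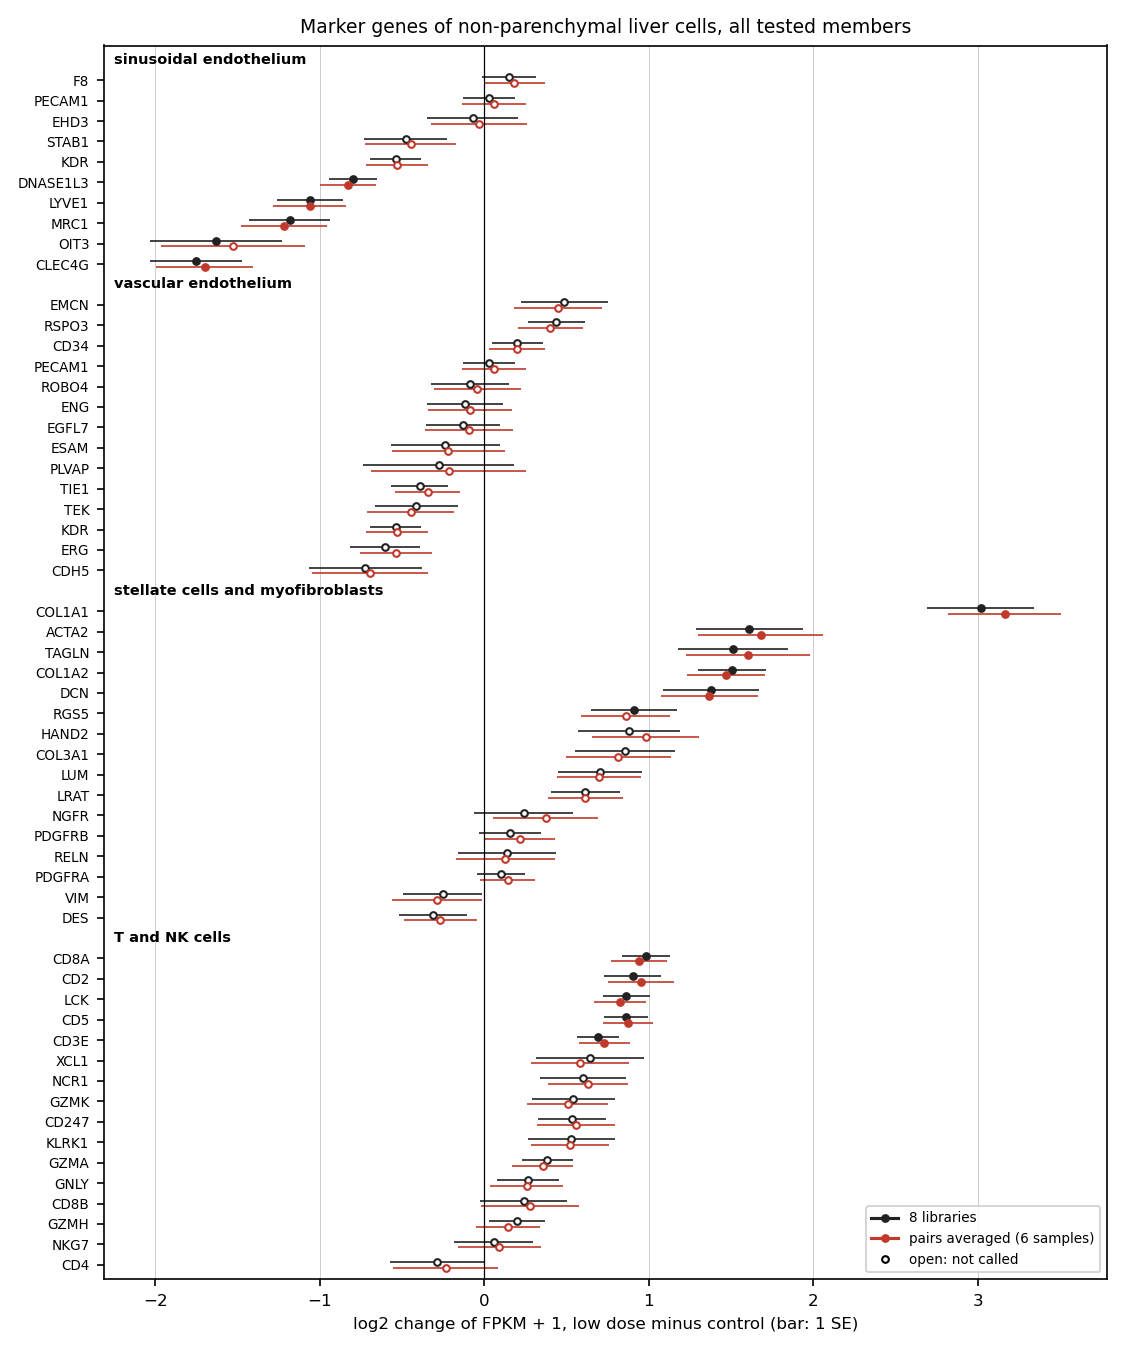
Log2 change (low dose minus control, FPKM + 1) of every tested marker of sinusoidal endothelium, vascular endothelium, stellate cells with myofibroblasts, and T and NK cells, with bars of 1 SE, in the fit to 8 libraries (black) and with the pairs averaged (red); open circles are genes not called. CLEC4G at -1.75 leads the falls of the sinusoidal list and COL1A1 at 3.02 the rises of the stellate list, while all vascular circles are open.

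Kupffer cell and macrophage markers were called higher at 1 and lower at 1 of 17 (11.8%, against 14.0% of all genes). The median change of the list was -0.63, against -0.03 over all genes and -0.67 for the sinusoidal list. The lower call was MRC1, given above. The higher was MARCO, a scavenger receptor, which read 11.7 and 0.77 FPKM in the controls and 18.02 to 40.6 (median 25.6) at low dose (log2 change 2.53, SE 0.63, adjusted p = 0.0303, and 0.0821 with the pairs averaged). On the log2 scale the controls of MARCO differed more from each other than Control-1 did from the low-dose libraries. MARCO (adjusted p = 0.0821) missed the threshold with both pairs averaged. MARCO (0.201) did so without Control-2. MARCO (0.0548) did so without 20Gy-3 and 30Gy-3. MARCO (0.0504) did so without 20Gy-2. MARCO (0.051) did so without 30Gy-1. MARCO (0.0504) did so without 30Gy-2. The counts of the macrophage list were 0 and 1 with the pairs averaged, 1 and 0 without Control-1 and 0 and 1 without Control-2, and 1 and 1 in the fit to all 11 libraries. Its summed level was 1262 and 1002 FPKM in the controls. At low dose it was 663.9, 598.4 and 607.2 in 20Gy-1, 20Gy-3 and 30Gy-3, and 1139, 1046 and 1031 in 20Gy-2, 30Gy-1 and 30Gy-2. The pooled comparison does not show this split along the triplets. Only 4 neutrophil markers passed the filter, of which 1 fell and 0 rose (0 and 1 with the pairs averaged, 0 and 1 without Control-1 and 0 and 0 without Control-2, and 0 and 1 in the fit to all 11 libraries), and the summed level of the 9 in the table was 10.1 and 7.3 FPKM in the controls and 4.99 to 8.17 in the low-dose libraries. Bile duct markers were called higher at 1 and lower at 1 of 9 (22.2% called, against 14.0% of all genes), with counts of 1 and 1 with the pairs averaged, 1 and 0 without Control-1 and 1 and 0 without Control-2, and 0 and 1 in the fit to all 11 libraries. CLDN4, a tight junction protein, fell from 196 and 236 to a range of 34.96 to 101 (median 61.05) (log2 change -1.89, SE 0.40, adjusted p = 0.0157, and 0.0413 with the pairs averaged). CLDN4 (adjusted p = 0.0746) missed the threshold without Control-1. CLDN4 (0.116) did so without Control-2. Of 5 erythroid genes limma called 0 (0 at an unadjusted p under 0.05), and the sum was 844 and 113 FPKM in the controls and 71.6 to 351 in the low-dose libraries, set largely by the beta globin gene HBB at 820.1 and 106 FPKM in the controls and 57.4 to 334 (median 164) at low dose.

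Urea cycle and nitrogen genes fell at 7 and rose at 4 of 22, but the counts were 1 and 4 with the pairs averaged, 4 and 6 without Control-1 and 1 and 1 without Control-2, and 1 and 1 in the fit to all 11 libraries. SLC25A15, the ornithine carrier, fell from 92 and 164 FPKM to a range of 27.98 to 53.9 (median 40.01) (log2 change -1.64, SE 0.34, adjusted p = 0.014, and 0.0396 with the pairs averaged). In bile acid synthesis and transport 3 of 19 genes rose and 1 fell (21.1% called, against 14.0% of all genes). CYP7A1, the rate-limiting enzyme of bile acid synthesis, rose from 14.97 and 1.86 to a range of 36.6 to 89.5 (median 62.6) (log2 change 3.13, SE 0.62, adjusted p = 0.012, and 0.0402 with the pairs averaged). KLB, the co-receptor through which gut FGF19 represses it, rose from 1.65 and 0.952 to a range of 6.96 to 11.3 (median 8.8) (log2 change 2.11, SE 0.23, adjusted p = 6.37e-04, and 0.00462 with the pairs averaged). NR0B2, the nuclear receptor SHP that also represses it, fell from 74.04 and 117 to a range of 15.5 to 28.9 (median 19.3) (log2 change -2.19, SE 0.27, adjusted p = 0.00128, and 0.00672 with the pairs averaged). SLC25A15 (adjusted p = 0.137) and CYP7A1 (0.103) missed the threshold without Control-2. SLC25A15 (0.0917) and CYP7A1 (0.13) did so in the fit to all 11 libraries. The bile acid counts were 2 and 1 with the pairs averaged, 5 and 1 without Control-1 and 2 and 2 without Control-2, and 1 and 1 in the fit to all 11 libraries. Cytochromes P450 and partners rose at 4 of 17 and fell at 0, with CYP26A1, which clears retinoic acid, going from 2.39 and 1.72 to a range of 4.12 to 9.85 (median 7.34) (log2 change 1.38, SE 0.30, adjusted p = 0.0165, and 0.0463 with the pairs averaged). AHR, the dioxin receptor, rose from 12.3 and 4.82 to a range of 20.96 to 29.7 (median 28.8) (log2 change 1.63, SE 0.29, adjusted p = 0.00741, and 0.0376 with the pairs averaged). CYP26A1 (adjusted p = 0.0652) missed the threshold without Control-1. CYP26A1 (0.131) and AHR (0.0503) did so without Control-2. The counts of the P450 list were 3 and 0 with the pairs averaged, 3 and 0 without Control-1 and 1 and 0 without Control-2, and 3 and 0 in the fit to all 11 libraries.

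Conjugating and detoxifying enzymes rose at 5 and fell at 5 of 34, and the counts were 4 and 5 with the pairs averaged, 5 and 3 without Control-1 and 3 and 5 without Control-2, and 2 and 3 in the fit to all 11 libraries. SULT1E1, the estrogen sulfotransferase, rose from 64.97 and 48.9 FPKM to a range of 393 to 579.8 (median 472) (log2 change 3.08, SE 0.19, adjusted p = 4.15e-05, and 0.00131 with the pairs averaged). FMO1, a flavin monooxygenase, rose from 580.4 and 143 to a range of 1798 to 3188 (median 2444) (log2 change 3.06, SE 0.47, adjusted p = 0.00363, and 0.0197 with the pairs averaged). SULT1B1, another sulfotransferase, fell from 5.2 and 10.3 to a range of 0.16 to 0.494 (median 0.357) (log2 change -2.65, SE 0.22, adjusted p = 1.57e-04, and 0.00195 with the pairs averaged). SULT1B1 passed the filter only through the 2 controls. Reads of similar sulfotransferase copies may be divided among them. FMO1 (adjusted p = 0.273) missed the threshold in the fit to all 11 libraries. Secreted plasma proteins rose at 3 and fell at 2 of 25 (20% called, against 14.0% of all genes), and the counts were 2 and 0 with the pairs averaged, 4 and 0 without Control-1 and 3 and 1 without Control-2, and 0 and 1 in the fit to all 11 libraries. SERPINA6, the carrier of cortisol, rose from 37.1 and 27.4 to a range of 121 to 146 (median 137) (log2 change 2.06, SE 0.16, adjusted p = 1.34e-04, and 0.00282 with the pairs averaged). HRG, histidine-rich glycoprotein, rose from 1566 and 402 to a range of 3073 to 4268 (median 3249.9) (log2 change 2.13, SE 0.41, adjusted p = 0.0107, and 0.0408 with the pairs averaged). AFP, the fetal albumin, belongs to the list of fetal and dedifferentiated liver. It read 0.576 and 0 in the controls, 1 of them listed at 0, and 5.66, 6.34, 8.55, 6.69, 7.75 and 9.05 at low dose (log2 change 2.72, SE 0.21, adjusted p = 1.35e-04, and 0.00195 with the pairs averaged). AFP passed the filter only through low-dose libraries. Of 5 tested genes of its list 1 rose and 1 fell (40.0% called, against 14.0% of all genes), and 1 and 0 with the pairs averaged. The summed level of the 8 in the table was 184.4 and 106.9 FPKM in the controls and 78.06 to 95.19 in the low-dose libraries. SERPINA6 (adjusted p = 0.0668) and HRG (0.0859) missed the threshold in the fit to all 11 libraries. Of 41 respiratory chain genes limma called 0, both with 8 libraries and with the pairs averaged, and 3 had an unadjusted p under 0.05 with 8 libraries.

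Clock genes moved in both directions, 3 of 21 up and 2 down (23.8% called, against 14.0% of all genes), with counts of 2 and 1 with the pairs averaged, 3 and 1 without Control-1 and 1 and 1 without Control-2, and 2 and 1 in the fit to all 11 libraries. NR1D1, the repressor REV-ERB alpha, fell from 4.61 and 6.77 FPKM to a range of 0.697 to 1.25 (median 0.935) (log2 change -1.76, SE 0.17, adjusted p = 3.54e-04, and 0.00431 with the pairs averaged). RORA, which binds the same sites as an activator, rose from 1.24 and 0.842 to a range of 4.64 to 7.28 (median 6.16) (log2 change 1.79, SE 0.19, adjusted p = 5.20e-04, and 0.00422 with the pairs averaged). The repressor PER2 rose from 7.32 and 2.91 to a range of 12.6 to 19.6 (median 16.5) (log2 change 1.57, SE 0.28, adjusted p = 0.00792, and 0.03 with the pairs averaged). The sources used here do not give the hour of sampling. KLF10, a transcription factor that answers to glucose and TGF beta, was the immediate early gene with the largest called change, from 12.9 and 21.7 to a range of 3.75 to 5.84 (median 5.14) (log2 change -1.59, SE 0.21, adjusted p = 0.00196, and 0.012 with the pairs averaged). Of 25 genes of this list 1 rose and 1 fell (8.0% called, against 14.0% of all genes), with counts of 1 and 1 with the pairs averaged, 0 and 1 without Control-1 and 0 and 1 without Control-2, and 0 and 1 in the fit to all 11 libraries. The median change of the list was 0.93, against -0.03 over all genes, so most members stood higher at low dose without being called. PER2 (adjusted p = 0.0659) missed the threshold without Control-2. Heat shock genes were called higher at 1 and lower at 1 of 18 (against 6.92% higher and 7.11% lower among all genes), and the counts were 0 and 0 with the pairs averaged, 1 and 1 without Control-1 and 0 and 0 without Control-2, and 0 and 1 in the fit to all 11 libraries. Genes of the integrated stress and unfolded protein responses were called higher at 3 and lower at 3 of 27 (22.2%), and the counts were 1 and 1 with the pairs averaged, 0 and 1 without Control-1 and 1 and 1 without Control-2, and 3 and 2 in the fit to all 11 libraries.

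Several metabolic and stress genes split the low-dose libraries along the 2 triplets and not by dose, and none of the 8 shown here passed the test of low dose against control. PCK1, the rate-limiting enzyme of gluconeogenesis, read 1639, 102, 1599, 96.4, 94.5 and 1614 FPKM in 20Gy-1 to 30Gy-3 in order, and 1549.9 and 1401 in the controls. CYP2E1, the ethanol-inducible P450, had the opposite order, 62.3, 1126, 60.4, 1091, 1091 and 63.5, with 1309.9 and 1092 in the controls. So 20Gy-1, 20Gy-3 and 30Gy-3 had PCK1 near the control level and CYP2E1 far under it, and the other 3 low-dose libraries the reverse. MYC, a growth-promoting transcription factor, read 159, 7.64, 108, 5.35, 7.38 and 106 at low dose and 5.22 and 5.76 in the controls. CCL2, a chemokine for monocytes, read 63.2, 6.27, 83.4, 6.54, 7.1 and 84.4 and 1.42 and 2.69. The adjusted p of the pooled comparison was 0.387 for PCK1, 0.329 for CYP2E1, 0.302 for MYC and 0.109 for CCL2. These genes were chosen after their values had been seen, so no test between the triplets is given. What the triplets share beyond these levels is not stated by the labels.

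**Figure D5:**
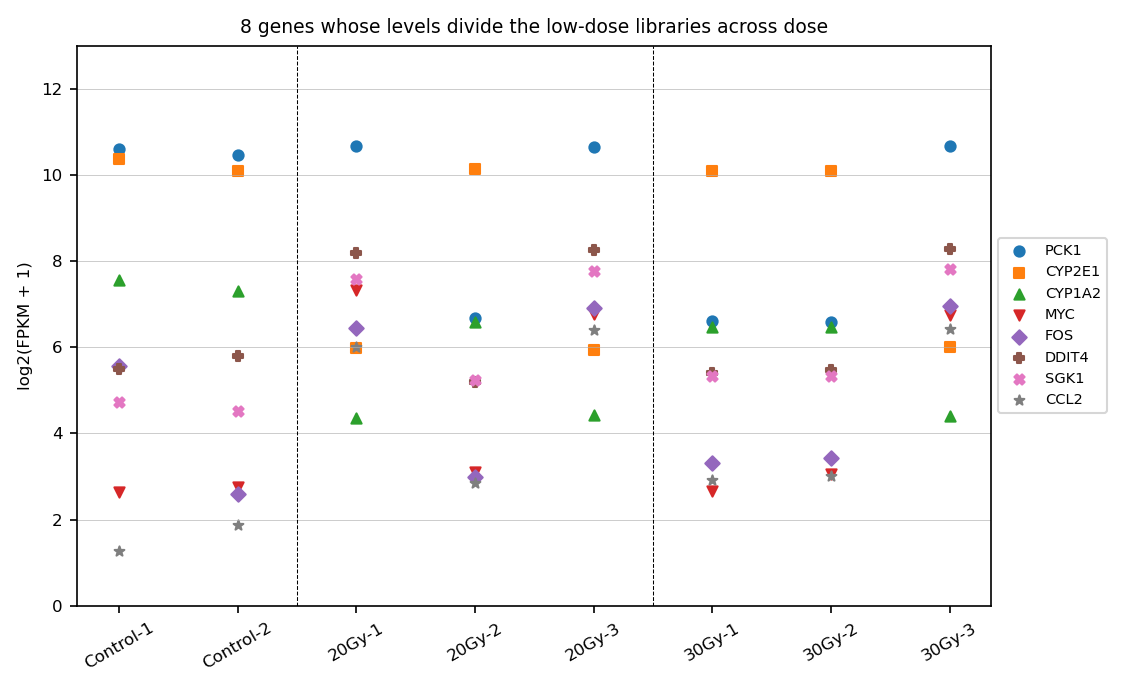
Level of 8 genes as log2(FPKM + 1) in the 2 control libraries, 3 libraries at 20 Gy and 3 at 30 Gy, with dashed lines between the groups and 1 symbol per gene. PCK1 lies between 1599 and 1639 FPKM in 20Gy-1, 20Gy-3 and 30Gy-3 and between 94.5 and 102 FPKM in the other low-dose libraries, and CYP2E1 shows the reverse, so that both dose groups hold both patterns.

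Within low dose, limma called none of the 11337 genes between 30 Gy and 20 Gy, and 570 had an unadjusted p under 0.05. With 30Gy-1 and 30Gy-2 averaged, 0 genes were called and 157 had an unadjusted p under 0.05. For SCD the difference of 30 Gy minus 20 Gy was 0.37 (SE 0.32), for FASN -0.40 (SE 0.18) and for CXCL9 0.07 (SE 0.16). The near-identical pair of 20Gy-3 and 30Gy-3 has 1 library in each dose. PNPLA3, CHAC1, MFAP4 and DEFB1 were among the called genes that varied most over the 4 distinct low-dose samples. PNPLA3 read 21.6, 54.01, 15.3, 42.9, 40.4 and 15.5 FPKM in 20Gy-1 to 30Gy-3, and CHAC1 13.9, 4.15, 12.6, 3.01, 3.91 and 11.3. PNPLA3 was low and CHAC1 high in 20Gy-1, 20Gy-3 and 30Gy-3 together. DEFB1, an epithelial defensin, read 363 and 123 in the controls and 12.3, 44.6, 20.4, 77.1, 76.8 and 18.6 at low dose (log2 change -2.64, SE 0.73, adjusted p = 0.0436, and 0.0692 with the pairs averaged), and was called in 9 of 19 alternatives, with adjusted p up to 0.308; its call ended when either control, any library at 20 Gy or 30Gy-3 was left out, with adjusted p of 0.308, 0.0827, 0.0575, 0.058, 0.0741 and 0.073 in turn.

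At 40 Gy the leading genes of low dose often stood at another level. Over all 11644 genes tested in 11 libraries 2732, or 23.5%, differed between 40 Gy and low dose, 1528 higher (13.1%) and 1204 lower (10.3%), and 1416 did with the pairs averaged. Leaving out 40Gy-1 gave 4664, 40Gy-2 1093 and 40Gy-3 1424. Of the 28 leading genes reported here, 23 differed, but these genes were chosen for extreme values in the low-dose libraries that this comparison shares. SCD read 57.5, 39.03 and 40.3 FPKM in 40Gy-1 to 40Gy-3, between control and low dose (difference -2.25, SE 0.27, adjusted p = 3.47e-04), and so did FASN at 77.5, 119 and 81.05 (difference -2.91, SE 0.21, adjusted p = 2.23e-05). CXCL9 read 2.6, 0.78 and 0.845 (difference -5.16, SE 0.22, adjusted p = 6.34e-07), near or under the controls. GDNF was listed at 0 in all 3 libraries at 40 Gy. MT1X read 1679, 7340.3 and 14684, far above every low-dose library (difference 5.38, SE 0.52, adjusted p = 8.37e-05). PLIN2 read 16.9, 11.8 and 11.2 (difference 2.23, SE 0.35, adjusted p = 0.00165), and APOA4 35.2, 34.3 and 46.2 (difference 1.55, SE 0.27, adjusted p = 0.0031), still far under the controls. ACSL4 read 28.6, 13.1 and 12.5 (difference -1.09, SE 0.28, adjusted p = 0.0185), and its call was lost without 40Gy-2 (adjusted p = 0.102), without 40Gy-3 (0.0925) and with the pairs averaged (0.0565). COL1A1 at 40 Gy was high in 1 library, at 139, 3.24 and 1.45, and did not pass (adjusted p = 0.554). For 5 of the leading genes no difference was called: SDS, PMM1, BUD13, SLC25A34 and ACKR2.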

How the data were processed

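RNA of pig liver was measured in 11 libraries: 2 controls and 3 each at 20, 30 and 40 Gy. Total RNA was extracted with Trizol and sequenced from both ends of fragments, per the labels' protocols. The authors deposited 1 table of FPKM for 12505 genes, with 1 column per library, and the depth behind these values is unknown. Per the submitters' processing notes HISAT2, Cufflinks and HTSeq and the builds Sscrofa11.1 and mm10 were used, with no roles named. The sources used here give neither filters nor strand. Symbols were matched to 10561 IDs. A few genes are not reported here; they are left out of the list counts and of the named genes.

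Values were analysed as log2(FPKM + 1), which understates changes of genes with low levels, and FPKM of 1 library depends on its other abundant genes. A gene was tested where 2 or more of the 8 libraries reached 1 FPKM (11337 genes). Means of low dose and control were compared in limma 3.58.1 (R 4.3.3), with variances moderated along a trend, 6 residual degrees of freedom (4 with each near-identical pair averaged) and two-sided p-values adjusted by Benjamini-Hochberg over all genes tested. The comparison of 40 Gy with low dose used 11 libraries. The fit was tested on simulated data with 8 independent libraries. That test cannot show how often calls are false where libraries are near-identical, as here.

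The comparison, the gene lists and the rules were chosen with earlier results of these data known. Leading genes were the 15 largest rises and 15 largest falls among genes called in both fits, not overlapping between low dose and control, whose higher group averaged 5 FPKM or more. From each list up to 4 called members with the largest change were named, and other names are marked as chosen after their values were seen. The alternatives were averaging or dropping near-identical libraries, leaving out each library, other pseudocounts, filters and scalings, a fit to all 11 libraries, no variance trend, and a replicate block.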

Additional observations from a re-analysis of the deposited data

Results flagged for a closer look

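The change against control differed between 40 Gy and low dose for 23 of the 28 leading genes reported here, by limma's test of 40 Gy minus low dose at an adjusted p under 0.05. Among genes raised at low dose, the log2 level at 40 Gy was lower for CBR2 (-6.30), EXTL1 (-5.41), CXCL9 (-5.16), THRSP (-5.14), IDI1 (-4.92), ANGPTL8 (-4.63), PNPLA3 (-4.21), CA3 (-3.88), GDNF (-3.43), FASN (-2.91), SCD (-2.25) and ACSL4 (-1.09). Among genes lowered at low dose, it was higher for SULT1A3 (5.99), MT1X (5.38), SCNN1B (4.07), GPT2 (3.19), ABHD5 (2.38), PLIN2 (2.23), MFSD2A (2.20), ACAA2 (1.95), APOA4 (1.55), ZPR1 (1.53) and MPST (1.05). All 3 libraries at 40 Gy were above all 6 low-dose libraries for MT1X, SULT1A3, PLIN2 and APOA4. They were under all of them for CXCL9, EXTL1, IDI1, FASN, SCD, THRSP and GDNF. These genes are examples and not a full list. The leading genes were selected for extreme values in the low-dose libraries, which both comparisons share. The calls of ACAA2 (adjusted p = 0.0715), ACSL4 (0.0565), MPST (0.104) and ZPR1 (0.055) were lost with the pairs averaged. ZPR1 missed the threshold without 40Gy-2 (0.0851) and without 40Gy-3 (0.0735). ACAA2 was at 0.0508 without 20Gy-1, 0.0523 without 20Gy-3 and 0.053 without 30Gy-3. MPST missed it without any 1 low-dose library (0.051 to 0.0789), without 40Gy-2 (0.197) and without 40Gy-3 (0.174). None of the 132 genes named by rule had 1 of the 4 distinct low-dose samples standing apart by Dixon's test at 95%. This says little about agreement among the 4 samples. 20Gy-1 lies close to the averaged pair of 20Gy-3 and 30Gy-3, and 20Gy-2 to that of 30Gy-1 and 30Gy-2. In such a layout 1 sample can seldom stand apart.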

How the results depend on the processing

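No call of a named gene changed sign under any alternative that was run; genes given by level only and not called, such as ALB and HBB, did. Genes called in low dose against control numbered 1591, and 777 with both pairs averaged, 1011 with 20Gy-3 and 30Gy-3 both dropped, and 814 in the fit to all 11 libraries. Leaving out 1 library at a time gave 687 (without Control-2) to 1467 (without 20Gy-2), and 890 without Control-1. After the data had been seen the pairs were also averaged with 1 control left out, where the lone control is assumed to vary like the low-dose samples: 320 genes were called without Control-1 and 120 without Control-2. Other pseudocounts, filters, scalings and the fit without a variance trend gave 1101 to 1672 calls; equal library sums gave 967 higher and 459 lower. The replicate block gave 1388 calls in low dose against control and 0 in 30 Gy against 20 Gy. The replicate numbers do not pair the samples, since same-numbered 20 and 30 Gy libraries correlated at -0.622, 0.648 and 0.573 in their deviations from the group means. Between 30 Gy and 20 Gy 0 genes were called, 2 with 20Gy-3 and 30Gy-3 dropped and 1 with the 30 Gy pair also averaged, and leaving out 1 library gave 0 to 4. For 40 Gy against low dose the count was 2732, 1416 with the pairs averaged, and 1093 to 4664 with 1 library left out. Of 229 genes that were named or listed, called or not, 70 lost their call with the pairs averaged, 94 in the fit to all 11 libraries, 73 of 225 without Control-1 and 97 of 225 without Control-2; the cause was not tested. Depth is unknown, so no detection limit can be given. Only 2 controls set every difference.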

Other observations

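Zonation markers of the liver lobule did not all move 1 way. Of 16 genes of periportal hepatocytes 3 rose and 3 fell, and of 14 pericentral genes 3 rose and 1 fell; the counts were 2 and 1 with the pairs averaged, 3 and 3 without Control-1 and 2 and 0 without Control-2, and 1 and 0 in the fit to all 11 libraries for the first, and 3 and 0 with the pairs averaged, 3 and 0 without Control-1 and 1 and 0 without Control-2, and 1 and 0 in the fit to all 11 libraries for the second. ASS1, which joins citrulline and aspartate in the urea cycle, read 3370.1 and 3035 FPKM in the controls and 1277 to 2212 (median 1663) at low dose (log2 change -0.98, SE 0.22, adjusted p = 0.0212, and 0.0729 with the pairs averaged), and ASL, the next enzyme, 320.2 and 635 and 138 to 237 (median 185) (log2 change -1.29, SE 0.31, adjusted p = 0.0255, and 0.0677 with the pairs averaged). Both are periportal. ASS1 (adjusted p = 0.0729) and ASL (0.0677) missed the threshold with both pairs averaged. ASS1 (0.121) did so without Control-1. ASS1 (0.0837) and ASL (0.202) did so without Control-2. ASS1 (0.199) and ASL (0.0741) did so in the fit to all 11 libraries. ASS1 (0.052) and ASL (0.0787) did so without 20Gy-3 and 30Gy-3. ASS1 (0.0881) did so after quantile normalization.

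In retinoid metabolism 3 of 19 genes rose and 3 fell, with counts of 1 and 2 with the pairs averaged, 2 and 1 without Control-1 and 0 and 1 without Control-2, and 2 and 3 in the fit to all 11 libraries. RDH11, a retinal reductase, fell from 106 and 230.3 FPKM to a range of 59.02 to 70.3 (median 63.6) (log2 change -1.28, SE 0.25, adjusted p = 0.0111, and 0.0487 with the pairs averaged). RBP4, the plasma carrier of retinol, read 3729 and 3524 and 2017 to 2478 (median 2196) (log2 change -0.71, SE 0.15, adjusted p = 0.0154, and 0.0739 with the pairs averaged). RBP4 (adjusted p = 0.0739) missed the threshold with both pairs averaged. RBP4 (0.0687) did so without Control-1. RBP4 (0.0552) did so without Control-2. RBP4 (0.0786) did so without 20Gy-3 and 30Gy-3. RBP4 (0.187) did so after quantile normalization. Of 37 complement and coagulation genes 0 rose and 3 fell (8.11% called, under the 14.0% of all genes). The counts were 0 and 1 with the pairs averaged, 3 and 0 without Control-1 and 0 and 3 without Control-2, and 0 and 1 in the fit to all 11 libraries. GPC3, a proteoglycan of fetal liver, read 172 and 94.3 in the controls and 58.4 to 70.2 (median 64.7) at low dose (log2 change -0.96, SE 0.21, adjusted p = 0.0181, and 0.0685 with the pairs averaged), opposite to AFP. GPC3 (adjusted p = 0.0685) missed the threshold with both pairs averaged. GPC3 (0.0988) did so without Control-1. GPC3 (0.0621) did so without 20Gy-3 and 30Gy-3.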
